A study of Mus musculus with 22 samples.

Results

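The genes followed across mouse preimplantation development, with and without the histone variant H2A.Z, were the trophectoderm transcription factors Cdx2, Gata3, Gata2, Eomes, Elf5, Tfap2a, Tfap2c, Elf3 and Klf6. They were chosen by gene symbol from a list of known regulators of this lineage, and they make up 9 of the 55335 genes in the expression table. RNA-seq had been performed on control and H2A.Z knockdown (KD) embryos to ask how the loss of H2A.Z affects transcription in early embryos. There were 22 libraries, each made from 15 pooled embryos of B6D2F1 mice (8-week-old females mated with B6D2F1 males) that were cultured in vitro. Embryos were collected at 44 h post hCG as 2-cell embryos, at 78 h as morulae and at 94 h as blastocysts. Each stage had 4 control libraries, and there were 3 KD libraries of 2-cell embryos, 3 of morulae and 4 of blastocysts. KD embryos had received about 10 pL of a mix of siRNAs against H2A.Z at 20 µM as zygotes. The paper names noninjected control embryos for its quantitative PCR. The sources used here do not state whether the control embryos of these libraries were injected, so the injection and the KD cannot be told apart.

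The trophectoderm is the outer epithelium of the blastocyst and founds the fetal part of the placenta, while the cells inside form the inner cell mass. In outer cells, polarity switches off the Hippo kinases, YAP1 and WWTR1 enter the nucleus, and TEAD4 then drives Cdx2 and Gata3. CDX2 represses pluripotency genes in these cells, EOMES and ELF5 maintain trophoblast stem cells, and the AP-2 proteins TFAP2A and TFAP2C together with GATA2 and GATA3 act on trophoblast enhancers. ELF3 and KLF6 are factors of epithelia, and KLF6 is needed for a normal placenta. H2A.Z is a variant of histone H2A that sits next to the start sites of many genes.

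Expression was measured as FPKM, fragments per kilobase of transcript, scaled to the mapped fragments of the library. Because a library pools all cells of its embryos, fewer cells of a type and less RNA per cell cannot be told apart. Replicates were pools of different embryos, and the p-values measure the spread between these pools. Differences within a stage were tested with limma on log2 of the scaled FPKM + 1 over all genes that reached 1 FPKM in 3 or more of the libraries fitted. A gene was called at an adjusted p under 0.05 (Benjamini-Hochberg over all genes tested). Adding 1 before the logarithm makes the log2 fold changes of low genes smaller than the ratio of their FPKM. The read depth is not given by FPKM. From the smallest steps between low values, a whole fragment in a transcript of 1 kb was worth 0.0349 to 0.0674 FPKM, so that values below about this size stood for few fragments.

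H2afz and H2afv, the genes that encode H2A.Z, were read as the check of the labels. H2afz was at 905 to 1244 FPKM in the control 2-cell libraries and at 415, 139 and 112 FPKM in the KD ones. In morulae, the control range of 1158 to 1511 FPKM stood against 30.3, 25.7 and 29.0 FPKM in KD embryos, and in blastocysts the control range of 1945 to 2656 FPKM stood against 53.2 to 67.2 FPKM. In 2-cell embryos, H2afv overlapped between the groups, at 83.7 to 97.6 FPKM in KD and 96.8 to 117.5 FPKM in control libraries (log2 fold change -0.23, adjusted p = 0.840). It was lower later, at 12.9, 11.01 and 9.90 FPKM in KD morulae against 92.5 to 113 FPKM in control morulae. No KD library overlapped a control library of its stage for H2afz, so every label as control or KD held.

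The factors came on in steps in control embryos. Tfap2c and Elf3 led in 2-cell embryos with 8.55 ± 2.47 and 4.99 ± 2.28 FPKM (SD, n = 4), with Tfap2c the higher in each of the 4 libraries. Klf6 and Gata3 followed at 0.699 ± 0.330 and 0.697 ± 0.221 FPKM, and Gata2, Eomes and Tfap2a had means of 0.160, 0.0914 and 0.0161 FPKM. Cdx2 and Elf5 were listed at 0 in all 4 control 2-cell libraries. In control morulae, Elf3 was the highest at 51.3 ± 8.67 FPKM, above Gata3 at 19.2 ± 3.12 and Tfap2c at 17.5 ± 4.74 FPKM, which did not differ beyond their spread. Klf6 (2.95 ± 0.742 FPKM) and Eomes (1.46 ± 0.354 FPKM) came next, then Cdx2 (0.944 ± 0.176 FPKM). Tfap2a, Elf5 and Gata2 were at or near 0, with means of 0.00677, 0.00602 and 0 FPKM.

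In control blastocysts, Elf3 was again at the top with 70.3 ± 28.3 FPKM, and Gata3 and Klf6 were level at 34.9 ± 3.89 and 34.3 ± 6.38 FPKM. Eomes (8.01 ± 0.303 FPKM) and Tfap2c (6.58 ± 2.41 FPKM) were within their spread of each other. The lowest were Gata2 (2.104 ± 1.13 FPKM), Cdx2 (1.79 ± 0.765 FPKM), Elf5 (1.66 ± 0.635 FPKM) and Tfap2a (1.02 ± 0.229 FPKM), whose neighbours in this order did not differ beyond their spread. All 9 factors thus had a mean of at least 1 FPKM in control blastocysts, for Tfap2a only through replicate 1, against 6 of them in KD blastocysts, 5 in control and KD morulae alike and 2 in 2-cell embryos. The control 2-cell and control blastocyst labels went with 6 genes of the 2-cell stage (Zscan4c, Zscan4d, Zscan4f, Zfp352, Tdpoz3 and Tdpoz4). These summed to 227 to 301 FPKM in control 2-cell embryos and to 0.113 to 0.965 FPKM in control blastocysts. They did not separate KD morulae (6.38 to 11.2 FPKM) from KD blastocysts (3.03 to 14.6 FPKM).

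**Figure D1:**
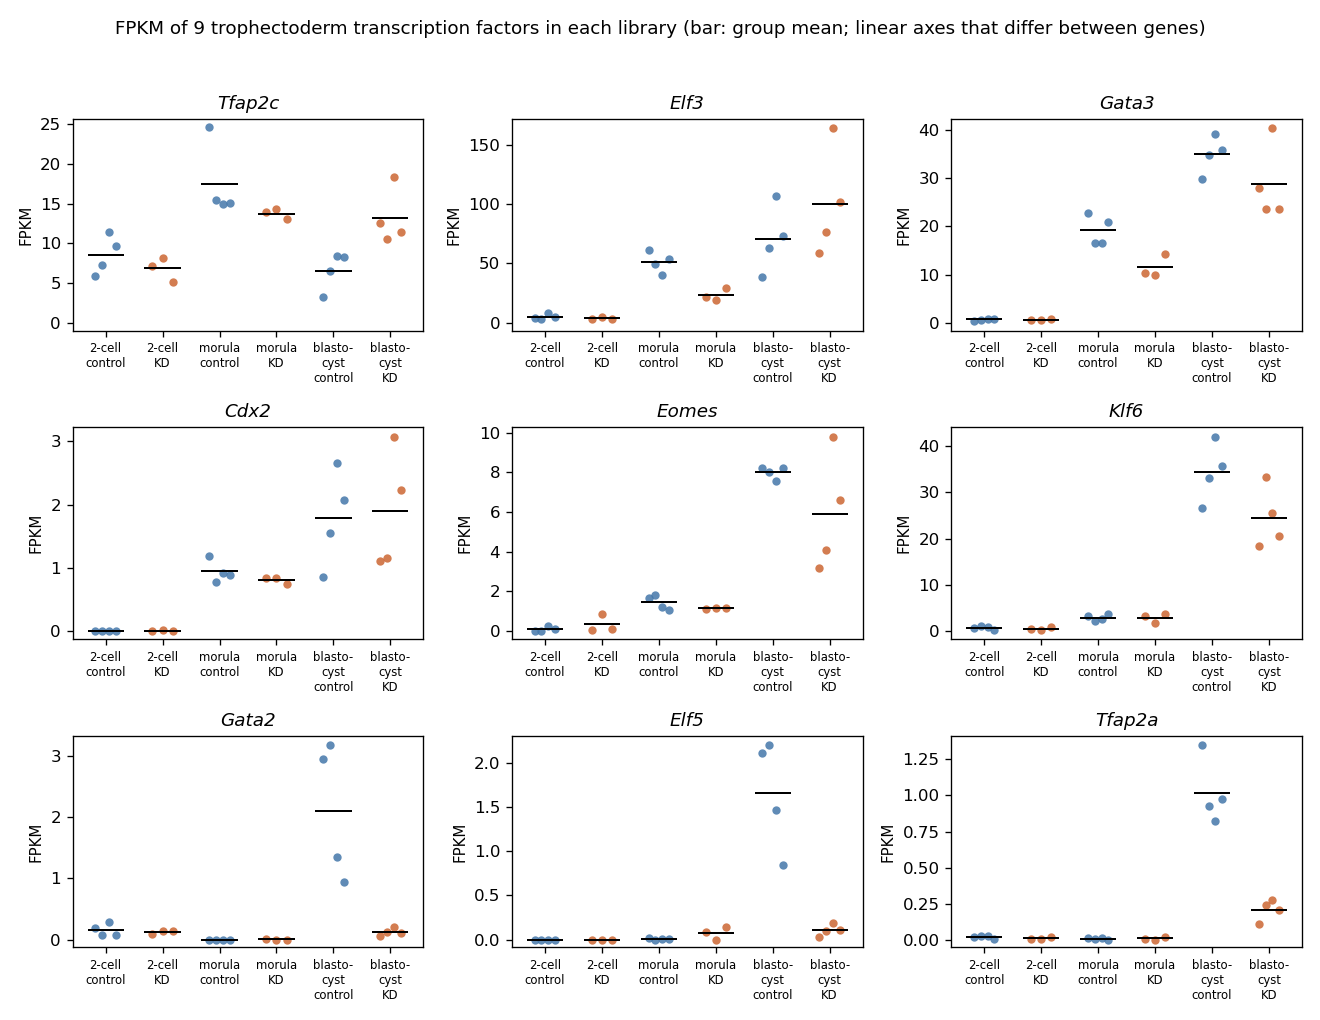
FPKM (linear y axis, scale differs between genes) of each of the 9 factors in the 22 libraries, by group on the x axis; blue points are control and orange points KD libraries, and bars are group means. Gata2, Elf5 and Tfap2a leave the floor in the control blastocysts, where their means are 2.104, 1.66 and 1.02 FPKM, and their KD blastocysts lie below all control blastocysts.

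From the 2-cell stage to the morula, most factors rose. Of the 13655 genes tested between these control groups, 43% were called higher in morulae and 40.3% lower. Of the 9 factors, 5 passed the filter, among them Gata3 and Eomes only through the morulae, so that with the filter these had to differ, while Klf6 also reached 1 FPKM in 1 of the 2-cell libraries. In the fit without the filter, the 3 were called higher too (adjusted p = 4.34e-07, 0.000149 and 0.00137 from limma). Gata3 rose by 3.54 on the log2 scale (standard error, SE, 0.16, adjusted p = 2.14e-09 from limma), and Elf3 by 3.17 (SE 0.21, adjusted p = 4.29e-08). The ratio of mean FPKM was 27.5 for Gata3 and 10.3 for Elf3. Klf6, Eomes and Tfap2c rose by 1.197, 1.15 and 0.96 on the log2 scale. Cdx2 was below the filter and went from 0 in all control 2-cell libraries to 1.19, 0.777, 0.926 and 0.884 FPKM in control morulae (two-sided exact permutation test, p = 0.0286, the smallest that 4 against 4 libraries allow). Gata2 took the opposite way, from 0.0757 to 0.294 FPKM in control 2-cell embryos to 0 in all 4 control morulae (p = 0.0286 in the same exact test).

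From the morula to the blastocyst, control embryos gained the factors unequally. Of 12727 genes tested, 28.2% were called higher and 27.4% lower in control blastocysts. Of the 8 factors tested, 5 were called higher and 1 lower, with Gata2 and Elf5 in the fit only through their control blastocysts (adjusted p = 0.000146 and 3.07e-05 without the filter). Of the factors with a mean of at least 1 FPKM in control morulae, Klf6 showed the largest change, from 3.33, 2.104, 2.59 and 3.76 FPKM in control morulae to 26.6, 33.1, 42.0 and 35.6 FPKM in control blastocysts. All its blastocyst libraries lay far above all morula libraries, by 3.11 on the log2 scale (SE 0.22, adjusted p = 4.12e-09). Eomes rose from 1.68, 1.83, 1.23 and 1.09 FPKM to 8.22, 8.03, 7.57 and 8.21 FPKM, by 1.84 on the log2 scale (SE 0.20, adjusted p = 7.54e-07), and its control blastocysts were nearly level with each other. Gata3 rose by 0.80 on the log2 scale (SE 0.17, adjusted p = 0.000584). Gata2 and Elf5, from 0 or near it, had log2 fold changes of 1.52 and 1.33, and of 4.23 and 3.90 with a pseudocount of 0.1, above the 3.47 of Klf6 in that setting. Tfap2c, which had been the most abundant of the 9 in 2-cell embryos, was the factor that fell, from 24.6, 15.5, 15.0 and 15.1 FPKM in control morulae to 3.20, 6.50, 8.36 and 8.26 FPKM in control blastocysts. Its log2 fold change was -1.37 (SE 0.20, adjusted p = 1.96e-05), and the groups did not overlap. Tfap2a, below the filter, went from 0 to 0.0138 FPKM in control morulae to the 0.821 to 1.35 FPKM of control blastocysts, a difference of 0.997 in mean log2(FPKM + 1) (two-sided exact permutation test, p = 0.0286, the smallest possible). Elf3 had a log2 fold change of 0.33 (SE 0.26, adjusted p = 0.286) and Cdx2 of 0.44 (SE 0.19, adjusted p = 0.0541), and neither was called. Cdx2 passed without blastocyst control replicate 1 (0.60, adjusted p = 0.0130) and without blastocyst KD replicate 1, 4 or 5 (adjusted p = 0.0473, 0.0492 and 0.0361). These KD libraries were not in the groups compared, but they were in the fit, whose estimate of the spread is shared by all its groups. The log2 fold changes without them were 0.444, 0.445 and 0.441, and why the call changed was not tested further.

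In KD 2-cell embryos, no factor could be told from control. Among 12160 genes tested with limma, 0% were called higher and 0% lower, with 701 genes at an unadjusted p under 0.05, and H2afz itself, with the smallest p of all, had a log2 fold change of -2.53 (SE 0.38) and an adjusted p of 0.543. With all 22 libraries in 1 fit, 33 genes were called, none of them a factor. Only Tfap2c and Elf3 passed the filter, with log2 fold changes of -0.20 (SE 0.22) and -0.24 (SE 0.25) and adjusted p-values of 0.882 and 0.877. The other 7 factors gave exact permutation p-values of 0.4 to 1, where 3 against 4 libraries cannot go below 0.0571.

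In KD morulae, Elf3 stood out. This factor of the ETS family was at 61.3, 49.6, 40.5 and 53.7 FPKM in control morulae and at 21.4, 19.3 and 29.2 FPKM in KD morulae. Every KD library was below every control library, and the control mean was 2.20 times the KD mean. Elf3 fell by 0.99 on the log2 scale (SE 0.19, adjusted p = 0.00994 from limma). Of the 5 factors tested, Elf3 was the 1 called lower and 0 were called higher, where 9.04% of all 10989 genes tested were called lower and 4.23% higher. With only 5 factors, that count is not far from the background. The Elf3 call was lost at an adjusted p of 0.0635 when genes of low FPKM were kept in the test, and at 0.0510 without KD replicate 2, with log2 fold changes of -0.99 and -0.87. Over the 7 other settings, the adjusted p of Elf3 ran from 1.08e-05 to 0.0635.

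Gata3, the zinc finger factor that TEAD4 drives in parallel to Cdx2, had the next largest difference. It was at 22.7, 16.5, 16.6 and 20.8 FPKM in control morulae and at 10.4, 9.88 and 14.3 FPKM in KD morulae. The groups did not overlap, with KD replicate 6 the nearest to the control libraries. The log2 fold change was -0.57 (SE 0.19), with an adjusted p of 0.0658, which missed the threshold. It passed under 5 of 7 other settings, with log2 fold changes of -0.53 to -0.75 in all 7 and an adjusted p from 0.0230 to 0.174, and without KD replicate 6 (-0.76, adjusted p = 0.0297). KD replicate 6 was also the KD morula library with the highest number, and control and KD morulae with replicate numbers 1 and 2 deviated from their group means together, as did those with higher numbers. With this range of numbers as a term in the fit, Gata3 had a log2 fold change of -0.53 (adjusted p = 0.0485).

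The remaining factors changed little in KD morulae. Tfap2c was at 13.9, 14.3 and 13.1 FPKM in KD morulae, just below the lowest control library at 15.0 FPKM, and was not called (log2 fold change -0.18, SE 0.16, adjusted p = 0.476). Eomes had a log2 fold change of -0.11 (SE 0.15, adjusted p = 0.665) and Klf6 of 0.05 (SE 0.24, adjusted p = 0.911). Cdx2 was below the filter, at 0.834, 0.843 and 0.745 FPKM in KD morulae, inside or just under the control range of 0.777 to 1.19 FPKM (two-sided exact permutation test, p = 0.229, smallest possible 0.0571). Gata2, Elf5 and Tfap2a were still at or near 0 in KD morulae, where the highest value among them was 0.142 FPKM for Elf5 in replicate 6.

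In KD blastocysts, the 3 factors that came on last in control embryos were low. The paper reports that fewer KD than control embryos became blastocysts, while development to the morula was not affected. A delay of the pooled KD embryos and an effect of the KD on single factors therefore cannot be told apart in these libraries. Gata2, the GATA factor of later trophoblast, was at 2.96, 3.18, 1.35 and 0.935 FPKM in control blastocysts and at 0.0582, 0.121, 0.205 and 0.1 FPKM in KD blastocysts. Elf5, an ETS factor that reinforces the trophoblast stem cell state, was at 2.12, 2.20, 1.47 and 0.841 FPKM in control and at 0.03, 0.0991, 0.186 and 0.103 FPKM in KD blastocysts. Tfap2a, the AP-2 factor of trophoblast and ectoderm, was at 1.35, 0.927, 0.821 and 0.979 FPKM in control and at 0.105, 0.242, 0.275 and 0.204 FPKM in KD blastocysts. For all 3, each KD library lay below each control library. The ratio of the control to the KD mean was 17.4 for Gata2, 15.8 for Elf5 and 4.93 for Tfap2a. Of the 11828 genes tested in blastocysts, 19.8% were called lower, and how many of all genes separated in this way was not counted. Control replicates 1 and 4 were the highest for Gata2 and Elf5, and replicates 5 and 6 the lowest.

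Gata2 and Elf5 passed the filter only through the control blastocysts, of which 3 each reached 1 FPKM, so that with the filter they had to differ. In the fit without the filter, Gata2 fell by 1.39 on the log2 scale (adjusted p = 0.0201 from limma) and Elf5 by 1.23 (adjusted p = 0.0100). The filtered fit gave the same fold changes with SE of 0.24 and 0.19 and adjusted p-values of 0.00110 and 0.000510. With a pseudocount of 0.1 in place of 1, the log2 fold changes were -3.19 and -3.07. Without control replicate 1, 4 or 5, both genes dropped below the filter and were not tested, and over the 7 other settings their adjusted p stayed at or under 0.0201 and 0.0100. Tfap2a was below the filter and had a difference of -0.74 in mean log2(FPKM + 1) (two-sided exact permutation test, p = 0.0286, the smallest that 4 against 4 libraries allow). Without the filter, its log2 fold change was also -0.74 (SE 0.13, adjusted p = 0.0137 from limma).

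Tfap2c went the other way. This AP-2 factor, present from the 2-cell stage on, was at 3.20, 6.50, 8.36 and 8.26 FPKM in control blastocysts and at 12.6, 10.6, 18.4 and 11.4 FPKM in KD blastocysts. Each KD library was above each control library, with a mean of 13.2 FPKM in KD against 6.58 FPKM in control blastocysts, close to the 13.8 FPKM of KD morulae. Tfap2c rose by 0.96 on the log2 scale (SE 0.23, adjusted p = 0.00674), and it stayed called with each library left out in turn.

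Of the 8 factors tested in blastocysts, 1 was called higher and 2 lower, where 16.7% of all 11828 genes tested were called higher and 19.8% lower. These shares are close enough that the counts are not a result about the factors as a group. Klf6 was at 26.6, 33.1, 42.0 and 35.6 FPKM in control and at 18.5, 33.4, 25.6 and 20.5 FPKM in KD blastocysts, so that 3 of 4 KD libraries were below all control libraries. It was not called (log2 fold change -0.48, SE 0.20, adjusted p = 0.0749), except without KD replicate 4, the highest of them (-0.66, adjusted p = 0.0115). Eomes, the T-box factor of trophoblast stem cells, was at 3.20, 4.08, 9.79 and 6.60 FPKM in KD blastocysts against the narrow control range of 7.57 to 8.22 FPKM. KD replicate 5 lay above and the other 3 below that range, with a log2 fold change of -0.48 (SE 0.24, adjusted p = 0.136) and, without replicate 5, of -0.67 (adjusted p = 0.0304).

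Cdx2, the factor by which the trophectoderm is usually marked, was not lower in KD blastocysts. It was at 0.863, 1.56, 2.66 and 2.07 FPKM in control and at 1.11, 1.16, 3.07 and 2.23 FPKM in KD blastocysts. The 2 groups covered nearly the same range (log2 fold change 0.05, SE 0.23, adjusted p = 0.900). Elf3, low in KD morulae, was at 38.5, 62.9, 106.8 and 73.1 FPKM in control and at 59.2, 76.6, 163.9 and 101.6 FPKM in KD blastocysts. The groups overlapped, replicate 1 was the lowest and replicate 5 the highest in both, and the difference was not called (0.50, SE 0.28, adjusted p = 0.186). Gata3 was at 29.9, 34.8, 39.3 and 35.9 FPKM in control and at 28.0, 23.6, 40.3 and 23.6 FPKM in KD blastocysts, with 3 KD libraries below all control libraries and replicate 5 above them (-0.29, SE 0.17, adjusted p = 0.199).

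**Figure D2:**
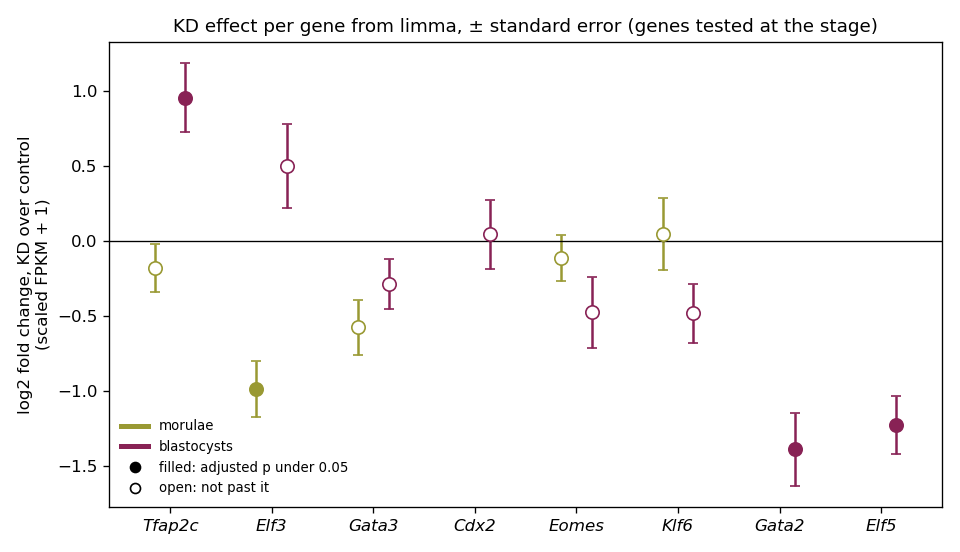
Log2 fold change of KD over control embryos (y axis, scaled FPKM + 1) for each factor tested by limma in morulae and in blastocysts, with bars of 1 SE; filled points have an adjusted p under 0.05. Elf3 is the filled point in morulae at -0.99, and Gata2 at -1.39, Elf5 at -1.23 and Tfap2c at 0.96 are filled in blastocysts. Gata2 and Elf5 passed the filter only through control blastocysts (adjusted p = 0.0201 and 0.0100 from limma without the filter). Tfap2a was below the filter.

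The passage from morula to blastocyst was also followed within KD embryos, at the same hours. Of 12727 genes tested, 19.6% were called higher and 18.5% lower in KD blastocysts than in KD morulae. Of the 8 factors tested, 4 were called higher and 0 lower. Klf6 rose by 2.55 on the log2 scale (SE 0.23, adjusted p = 5.88e-07), Elf3 by 1.78 (SE 0.28, adjusted p = 9.87e-05), Eomes by 1.45 (SE 0.22, adjusted p = 6.98e-05) and Gata3 by 1.05 (SE 0.18, adjusted p = 0.000227). Gata2 (0.14, SE 0.21), Elf5 (0.02, SE 0.17) and Tfap2c (-0.27, SE 0.22) were not called, at adjusted p-values of 0.631, 0.936 and 0.352. Gata2 and Elf5 were in this fit only through control blastocysts, which are not part of this comparison. For Gata2, all KD blastocysts (0.0582 to 0.205 FPKM) lay above all KD morulae (0 to 0.0165 FPKM). Over the 4 other settings, its log2 fold change ran from 0.14 to 0.97, with adjusted p-values of 0.102 to 0.799 from limma. Elf5 overlapped between KD morulae and KD blastocysts. Tfap2a, below the filter, was at 0 to 0.0196 FPKM in KD morulae and at 0.105 to 0.275 FPKM in KD blastocysts. All KD blastocysts were above all KD morulae, with a difference of 0.26 (two-sided exact permutation test, p = 0.0571, the smallest that 3 against 4 libraries allow). Cdx2 had a log2 fold change of 0.51 (SE 0.20, adjusted p = 0.0578), close to the 0.44 of control embryos. It passed with the FPKM as deposited (0.62, adjusted p = 0.0479) and without blastocyst control replicate 1 or 5 or KD replicate 1 or 4 (adjusted p = 0.0371, 0.0459, 0.0297 and 0.0349). Among the genes called, 51.4% were higher in KD blastocysts with the scaling used, against 67.2% with the FPKM as deposited and 65.4% with equal totals.

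The difference between the KD effects of the 2 stages was tested directly, as an interaction in the fit of the 15 morula and blastocyst libraries. Of 12727 genes, 5.43% had a KD effect that was called higher in blastocysts than in morulae and 6.32% one that was called lower. The split of the calls depended on the scaling: 46.2% were higher as used here, against 56.0% with the FPKM as deposited and 71.3% with equal totals, which moved the median over all genes by 0.12 and 0.25. The effect on Elf3 was higher in blastocysts by 1.45 on the log2 scale (SE 0.38, adjusted p = 0.0200) and that on Tfap2c by 1.10 (SE 0.30, adjusted p = 0.0235). The difference for Gata2 was -1.37 (SE 0.29, adjusted p = 0.00609), and that on Elf5 was -1.31 (SE 0.23, adjusted p = 0.00157), where both genes were at or near 0 in control morulae, had no room to fall there and passed the filter only through control blastocysts. Without the filter, their adjusted p-values were 0.0349 and 0.00945. The calls of Elf3 and Tfap2c were lost without the filter on low FPKM (adjusted p = 0.0904 and 0.0748) and without morula KD replicate 1 (0.0549 and 0.0556), and that of Elf3 also without morula KD replicate 2 (0.0574). Over the 4 other settings, the adjusted p ran from 0.0205 to 0.0904 for Elf3 and from 0.0253 to 0.0748 for Tfap2c. For Klf6, Gata3, Eomes and Cdx2, the difference between stages was -0.56, 0.25, -0.39 and 0.06, with adjusted p-values of 0.270, 0.548, 0.420 and 0.910. Tfap2a was below the filter, and without the filter its difference was -0.73 (SE 0.13, adjusted p = 0.0112 from limma). It was at 0 to 0.0138 FPKM in control morulae and had no room to fall there.

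For each factor, the 3 most alike genes were taken by the Pearson correlation of log2(FPKM + 1) over the 22 libraries, among 15689 genes. Such correlations follow the 3 stages, which all genes share, and are given as a description. Gata2 was followed most closely by Ccdc68 (r = 0.978), Gm807 (r = 0.977) and 1700019A02Rik (r = 0.969), and Elf5 by the lens crystallin genes Crygc (r = 0.982) and Crygd (r = 0.981) and by Gulp1 (r = 0.972). Tfap2a was followed by Gm36287 (r = 0.993), S100a1 (r = 0.985) and Gpa33 (r = 0.984). These 9 genes were picked for following the 3 factors, and all had a lower mean in KD than in control blastocysts: Gpa33 had a mean of 23.0 FPKM in control and 2.72 FPKM in KD blastocysts, Crygc of 3.92 and 0.191 FPKM, and Ccdc68 of 2.21 and 0.148 FPKM.

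The other factors had neighbours of another shape. Tfap2c was most alike Slc5a6 (r = 0.959), Dus3l (r = 0.943) and Rcl1 (r = 0.943), and Slc5a6, a vitamin transporter, had means of 109 FPKM in control morulae, 22.3 FPKM in control blastocysts and 60.3 FPKM in KD blastocysts. Elf3 was most alike Smpd1 (r = 0.989), Sars (r = 0.988) and Rasgrp4 (r = 0.987). Smpd1, an acid sphingomyelinase, went from 59.0 to 32.3 FPKM in control and KD morulae and from 97.8 to 110.4 FPKM in control and KD blastocysts. Gata3 was most alike Tmem62 (r = 0.9948), Ahcy (r = 0.9945) and Hadh (r = 0.9941). Cdx2 was most alike Mfge8, Mpped2 and Lsr (r = 0.973, 0.971 and 0.970), Eomes alike Zc3h7a, Vasp and Scd2 (r = 0.980, 0.973 and 0.971), and Klf6 alike Fgfbp1, Slc38a1 and Vtcn1 (r = 0.988, 0.986 and 0.980).

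Upstream of the factors, 21 genes of the TEAD, Hippo and Notch pathways were listed. In morulae, 14 were tested, of which 2 were called higher and 0 lower in KD embryos, with a median log2 fold change of 0.15. Over all genes, 4.23% were called higher and 9.04% lower, with a median of 0.02. The 2 were Rbpj, the DNA-binding partner of Notch (0.66, SE 0.17, adjusted p = 0.0290), and Mob1b, a cofactor of the Hippo kinases (0.51, SE 0.15, adjusted p = 0.0455). Both calls were lost without the filter on low FPKM (adjusted p = 0.0852 and 0.0698). In blastocysts, 16 were tested, of which 3 were called higher and 1 lower (16.7% and 19.8% over all genes), with a median of 0.08 against 0.00 over all genes. Tead4, the partner of YAP1 at Cdx2 and Gata3, was at 5.20, 8.20, 9.60 and 7.98 FPKM in control and at 14.7, 9.77, 23.8 and 12.6 FPKM in KD blastocysts. All KD libraries were above all control libraries, and Tead4 rose by 0.85 on the log2 scale (SE 0.22, adjusted p = 0.00989). Nf2 and Stk4, which act in the Hippo pathway, rose by 0.79 and 0.50, and the Hippo kinase gene Stk3 fell by 0.78 (adjusted p = 0.0249, 0.0289 and 0.00700). Without the filter, Nf2 was not called (adjusted p = 0.113).

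Other regulators of trophectoderm and trophoblast were listed with 13 genes. In morulae, 6 were tested, with 1 called higher and 0 lower (4.23% and 9.04% over all genes), and in blastocysts 5, with 1 called in each direction (16.7% and 19.8%), at medians of 0.07 and -0.07. These counts are close to the background. Hand1, a factor of trophoblast giant cells, was the 1 called higher at both stages. It was at 0.0636, 0.0674, 0.0588 and 0.0530 FPKM in control blastocysts and at 1.57, 1.21, 3.06 and 1.41 FPKM in KD blastocysts, and so reached the filter only through KD embryos there. Without the filter, Hand1 rose by 1.35 on the log2 scale in blastocysts (SE 0.17, adjusted p = 0.00376). In morulae, Hand1 was at 6.25, 3.42, 3.07 and 1.76 FPKM in control and at 10.4, 7.33 and 4.46 FPKM in KD embryos. It rose by 0.99 there (SE 0.29, adjusted p = 0.0480), a call that was lost without the filter (adjusted p = 0.201). Id2, an inhibitor of basic helix-loop-helix factors that is high in outer cells, was at 847, 853, 677 and 642 FPKM in control and at 279, 366, 239 and 311 FPKM in KD blastocysts. The groups were far apart, and Id2 fell by 1.33 (SE 0.21, adjusted p = 0.000533).

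The epithelial, transport and signalling genes of the trophectoderm were listed with 26 genes. In control embryos, 25 of them were tested between morula and blastocyst, with 15 called higher and 2 lower in blastocysts (28.2% and 27.4% over all genes) and a median log2 fold change of 0.79, against 0.00 over all genes. In KD embryos, 13 of the same 25 were called higher and 2 lower (19.6% and 18.5% over all genes), with a median of 0.84. Within blastocysts, 25 were tested, of which 2 were called higher and 7 lower in KD embryos, shares of the list that stand against 16.7% and 19.8% of all genes, with a median of -0.13. Of the 7, 1 was in the test only through control blastocysts, and without the filter 1 was called higher and 5 lower. The summed level of all 26 genes was 6876, 6257, 5629.6 and 5193 FPKM in control and 2083, 2819, 2519 and 2415 FPKM in KD blastocysts. The most abundant was Fabp3, a fatty acid binding protein, with a mean of 2773 FPKM in control and 1075 FPKM in KD blastocysts, followed in control blastocysts by Dppa1, with 1042 FPKM there and 176 FPKM in KD blastocysts. The 4 genes with the smallest p all fell: the tetraspanin gene Tspan8 by 3.16, the trophoblast gene Plac1 by 2.92, Dppa1 by 2.56 and Fabp3 by 1.38 on the log2 scale (adjusted p = 1.73e-05, 2.69e-05, 8.59e-05 and 0.000761).

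In morulae, 21 of these 26 genes were tested, with 1 called higher and 2 lower in KD embryos (4.23% and 9.04% over all genes) and a median of 0.03. Cldn4, a claudin of tight junctions, was at 27.8, 24.1, 25.0 and 19.9 FPKM in control and at 10.2, 9.68 and 11.8 FPKM in KD morulae. All KD libraries were below all control libraries, as for Elf3, and Cldn4 fell by 1.00 (SE 0.15, adjusted p = 0.00436). Cldn4 stayed called without the filter (adjusted p = 0.0260). Plac1 was in the test only through control morulae, and its log2 fold change of -0.82 was not called without the filter (adjusted p = 0.0939). Atp1b1, a subunit of the sodium pump that fills the blastocyst cavity, rose by 0.61 (adjusted p = 0.0280, and 0.0608 without the filter). The split of calls over all morula genes depended on the scaling: 31.9% of the genes called were higher in KD embryos as used here, against 15.3% with the FPKM as deposited and 11.9% with equal totals. The latter settings moved the median log2 fold change of all genes by -0.10 and -0.15, and the Elf3 and Gata3 differences were larger than these shifts.

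Relatives from the same protein families were few. Of 21 listed, 7 were tested in morulae, with 1 called higher and 1 lower (4.23% and 9.04% over all genes), and 8 in blastocysts, with 2 called higher and 0 lower (16.7% and 19.8%), at medians of 0.05 and 0.13. Gata1 fell by 0.84 in KD morulae (SE 0.20, adjusted p = 0.0206) and rose by 0.94 in KD blastocysts (SE 0.22, adjusted p = 0.00643), from means of 29.5 to 15.2 FPKM and of 2.01 to 4.65 FPKM. Without the filter, the adjusted p was 0.0969 in morulae and 0.0384 in blastocysts. Klf4, a relative of Klf6 also listed with the epiblast, rose by 0.61 in blastocysts (adjusted p = 0.0310), and Klf2 by 0.71 in morulae (adjusted p = 0.0278), with adjusted p-values of 0.0784 and 0.0909 without the filter.

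Markers of the other cell types of the embryo were read beside the factors. The 14 markers of the inner cell mass and epiblast summed to 393, 423, 461 and 486 FPKM in control and 283, 299 and 386 FPKM in KD morulae, and to 461, 485, 589 and 427 FPKM in control and 391, 463, 546 and 415 FPKM in KD blastocysts. In morulae, 10 were tested, of which 1 was called higher and 2 lower (4.23% and 9.04% over all genes), with a median of 0.01. Nanog, the most abundant of them in control morulae, was at 62.9, 103, 113 and 143 FPKM there and at 17.9, 11.6 and 32.5 FPKM in KD morulae. It fell by 2.23 on the log2 scale (SE 0.37, adjusted p = 0.00647), at the stage at which Elf3 was low, and was not called without the filter (adjusted p = 0.0719). In blastocysts, 11 were tested, of which 2 were called higher and 3 lower (16.7% and 19.8% over all genes), with a median of -0.02. Tdgf1 was at 99.5, 96.5, 77.0 and 49.3 FPKM in control and at 13.5, 15.0, 18.5 and 13.8 FPKM in KD blastocysts, and fell by 2.28 (SE 0.23, adjusted p = 3.00e-05). Gdf3 fell by 1.51 (adjusted p = 0.000627). Prdm14 passed the filter only through control blastocysts, and without the filter it fell by 1.03 (adjusted p = 0.00535). Klf4, with the smaller p of the 2 called higher, rose as given above, and neither of the 2 was called without the filter. Nanog was at 100, 121, 195 and 112 FPKM in control and at 118, 134, 226 and 166 FPKM in KD blastocysts. It was not called there (log2 fold change 0.29, SE 0.21, adjusted p = 0.288 from limma). Of the 14 markers, only Nodal was listed at 0 in every library of a group, in KD morulae.

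The 8 markers of the primitive endoderm summed to 109, 140, 178 and 135 FPKM in control and 165, 135, 184 and 167 FPKM in KD blastocysts, with Dab2 the most abundant at means of 128 and 143 FPKM. Only Gata6 and Dab2 were tested at the morula and blastocyst stages, and 0 of them were called. The shares over all genes were 4.23% higher and 9.04% lower in morulae, and 16.7% and 19.8% in blastocysts. Foxa2 was listed at 0 in all 22 libraries. The 12 markers of cumulus and granulosa cells, which surround the oocyte, summed to 4.13 to 6.71 FPKM in control and 4.22 to 6.71 FPKM in KD blastocysts. Nearly all of this was Amhr2, at means of 5.16 and 4.68 FPKM, and 8 markers were listed at 0 in all control and 6 in all KD blastocysts, among them Has2, Ptgs2, Inhba, Ptx3, Fshr and Amh in both. The 6 genes of the 2-cell stage summed to 0.925, 0.965, 0.113 and 0.561 FPKM in control and to 3.03, 14.6, 3.17 and 9.52 FPKM in KD blastocysts, with Zfp352 the most abundant in each group. In morulae, they summed to 2.91, 1.54, 6.41 and 4.55 FPKM in control and to 11.2, 7.74 and 6.38 FPKM in KD embryos, so that the groups overlapped. Of 3 tested in morulae, Tdpoz3 was the 1 called higher (0.81, SE 0.21, adjusted p = 0.0281) and 0 were called lower (4.23% and 9.04% over all genes), with a median of 0.81. It reached 1 FPKM in 3 KD and 1 control library and was not called without the filter (adjusted p = 0.131). Zfp352 was the 1 tested in blastocysts, only through KD libraries, and without the filter it rose by 1.56 (SE 0.34, adjusted p = 0.0265). Over all genes tested there, 16.7% were called higher. The part that a change in the make-up or the age of the embryos had in the levels of the factors was not tested.

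The genes of the factors lie on 6 chromosomes of GRCm38, the assembly also called mm10. Gata2 (ENSMUSG00000015053.14) lies at chr6:88193891-88207032 on the plus strand, Elf5 (ENSMUSG00000027186.14) at chr2:103411688-103450989 on the plus strand and Tfap2a (ENSMUSG00000021359.16) at chr13:40715302-40738376 on the minus strand. Elf3 (ENSMUSG00000003051.13) lies at chr1:135253575-135258568 and Cdx2 (ENSMUSG00000029646.3) at chr5:147300805-147307270, both on the minus strand. Gata3 (ENSMUSG00000015619.10, minus) and Tfap2c (ENSMUSG00000028640.11, plus) lie on chromosome 2 at chr2:9857078-9890034 and chr2:172549593-172558622. Eomes (ENSMUSG00000032446.14) lies at chr9:118478212-118486132 and Klf6 (ENSMUSG00000000078.7) at chr13:5861482-5870394, both on the plus strand. Smart-seq2 does not mark the strand, so reads of a factor and of an antisense gene that overlaps it cannot be told apart. Such genes on the opposite strand were low: Gm33460 at Eomes reached at most 1.53 FPKM, in control blastocyst replicate 4. At Tfap2a, Gm26688 shared 380 exonic bases and was at 0.457, 0.325, 0.545 and 0.446 FPKM in control and 0.112, 0.337, 0.186 and 0.0525 FPKM in KD blastocysts, which was above Tfap2a in KD replicates 1 and 4 and below it in the other 6 blastocyst libraries. Gm47061 and Gm47067, also at Tfap2a, reached 0.592 and 0.0786 FPKM, 4930412O13Rik and Gm13256 at Gata3 reached 0.769 and 0.218 FPKM, and Gm26642 at Elf3 reached 0.306 FPKM. On the same strand as Gata3, 9230102O04Rik shared 77 exonic bases with it and reached 0.669 FPKM, in control blastocyst replicate 5. Gata2, Elf5, Tfap2c, Cdx2 and Klf6 shared no stretch of 75 bases with the transcripts of other genes.

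The table of RefSeq promoters used (GRCm38.p6) held 8 of the 9 factors, in 11 windows since some genes have more than 1 start, and did not hold Tfap2c. In the 250 bases before each start, the GC content was above the median of all 32851 promoters (52.4%) in 9 of 11 windows, and the ratio of observed to expected CpG was above their median (0.373) in 10 of 11. Both strands of the windows were searched for short motifs by which the families of these factors are known. The CDX motif TTTATG was in 10.8% of all promoters. For the GATA family, AGATAA was in 9.99% of them. The T-box letters were AGGTGT, found in 11.8%. Factors of the ETS family, such as Elf3 and Elf5, were given CCGGAA, found in 12%. The AP-2 palindrome GCCNNNGGC was in 13.7%. For the family of Klf6, the motif was CCGCCC, in 32.7%. For TEAD, which acts upstream, GGAATG was in 12.6%. A match describes the letters only, and binding was not measured. The promoter of Gata3 had 3 matches for AP-2, 2 for KLF and 1 for ETS, and the inner start of Gata2 had 1 for AP-2, 2 for KLF and 1 for TEAD. Those of Cdx2, Elf3 and Klf6 had 1 match each, for AP-2, TEAD and KLF, and that of Eomes had none of the 7. No window of a factor held the GATA letters.

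The promoters of Gata2, Elf5 and Tfap2a are shown because these 3 genes came on in control blastocysts and were lower in each KD blastocyst library. Each is the stretch before a RefSeq start, 5′ to 3′ on the strand of the gene, without bases of any annotated exon of that gene, and capitals mark matches to the letters above. They lie at chr6:88193641-88193890 (plus strand), chr2:103423818-103424061 (plus strand) and chr13:40734921-40735170 (minus strand), and the last overlaps an exon of the antisense gene Gm26688. In the stretches shown, Gata2 had 1 match for KLF, Elf5 had 1 for CDX and Tfap2a had 1 for KLF and 1 for CDX. No family was matched in all 3 stretches. The other window of Elf5 had 1 match for T-box and 1 for TEAD, and the other window of Tfap2a had 1 for KLF.
Gata2: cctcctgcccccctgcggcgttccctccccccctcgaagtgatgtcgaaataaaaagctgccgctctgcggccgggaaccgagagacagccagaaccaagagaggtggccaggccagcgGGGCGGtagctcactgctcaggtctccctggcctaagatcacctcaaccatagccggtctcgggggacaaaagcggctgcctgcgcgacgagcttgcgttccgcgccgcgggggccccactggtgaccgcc
Elf5: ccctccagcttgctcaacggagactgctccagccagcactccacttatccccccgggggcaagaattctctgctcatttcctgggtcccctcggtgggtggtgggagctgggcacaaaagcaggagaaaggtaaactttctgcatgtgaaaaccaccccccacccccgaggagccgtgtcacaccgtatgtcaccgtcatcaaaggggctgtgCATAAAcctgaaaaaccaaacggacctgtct
Tfap2a: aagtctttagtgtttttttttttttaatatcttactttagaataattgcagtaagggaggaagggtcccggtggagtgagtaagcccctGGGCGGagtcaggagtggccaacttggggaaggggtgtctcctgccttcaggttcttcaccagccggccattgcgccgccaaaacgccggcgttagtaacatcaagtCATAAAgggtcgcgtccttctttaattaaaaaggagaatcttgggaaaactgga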

How the data were processed

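The authors deposited the table of FPKM per gene and library. According to the submitters' processing notes, reads were aligned to mm10 with STAR, FPKM were made with StringTie 2.1.4, and counts with featureCounts 1.6.2 were tested by the authors with DESeq2 1.30.1. No reads or counts were available here.

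FPKM were scaled by the median ratio to the geometric mean of genes detected in every fitted library, 1 was added, log2 was taken, and limma 3.58.1 (R 4.3.3) was fitted to genes reaching 1 FPKM in 3 or more libraries of the fit, with Benjamini-Hochberg adjustment at 0.05. Each stage had its own fit, and the morula and blastocyst libraries shared a fit for changes between them. Genes below the filter were tested by two-sided exact permutation. Alternatives were FPKM as deposited, equal totals, a pseudocount of 0.1, no filter, a replicate block, a batch by range of replicate numbers, 1 fit over all libraries and each library left out. The code was tested on simulated data. Other steps used Python 3.11.15 with numpy 2.4.6, pandas 2.3.3, scipy 1.17.1 and matplotlib 3.10.9.

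The factors and gene lists were chosen with earlier results of these data known. Besides the factors and the H2A.Z genes, named genes were at most 4 per list with the smallest p, the 3 most alike genes, markers that led a sum or were at 0, and genes overlapping a factor. Of the gene IDs, 54587 matched GENCODE M21 with version.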

Additional observations from a re-analysis of the deposited data

Results flagged for a closer look

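Tfap2c in control morula replicate 1 was at 24.6 FPKM, apart from the other 3 control morulae. A value is set apart this way by chance in about 1 in 20 groups, and 41 groups of 4 libraries were compared.

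The KD effect differed between blastocysts and morulae for Elf3 (1.45 on the log2 scale), Gata2 (-1.37), Elf5 (-1.31), Tfap2c (1.10) and H2afv (1.04). Gata2 and Elf5 were at or near 0 in control morulae and had no room to fall there, and they passed the filter only through control blastocysts. The cause of the differences between the stages was not tested.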

How the results depend on the processing

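In 2-cell embryos, 0 genes were called, 33 with 1 fit over all 22 libraries, and 0 (without control replicate 1) to 3 (without KD replicate 1) with a library left out. In morulae, 465 genes were called higher and 993 lower, together against 412 without the filter on low FPKM, and 551 (without KD replicate 2) to 1744 (without control replicate 1) with a library left out.

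Of the factors, 1 was called in morulae. It was 2 with FPKM as deposited, with the same total per library, with low and high replicate numbers fitted as batches and with 1 fit over all 22 libraries, and 0 without the filter. Leaving out a library gave 0 (KD replicate 2) to 2 (KD replicate 6). In blastocysts, 3 were called, with 1 (without control replicate 1) to 4 (without KD replicate 4) when a library was left out. Gata2 and Elf5 fall below the filter without control replicate 1, 4 or 5.

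For the difference of the KD effect between blastocysts and morulae, 691 genes were called higher and 804 lower, together against 988 without the filter, and 962 (without morula KD replicate 1) to 1722 (without blastocyst control replicate 5). Of the factors, 4 were called, and 2 (without morula KD replicate 1) to 4 (without morula control replicate 1). Where no reason is given, the cause was not tested.

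No source states that libraries of the same number were paired. Correlations of their deviations from the group means were -0.111 to 0.354, other pairs reached 0.401, and not every library correlated best with its own number, so the main fit was not paired. With the replicate block, 2 factors were called in morulae, where Gata3 had a log2 fold change of -0.72 (adjusted p = 0.0337). In blastocysts Elf3 was called with the replicate block (0.50, adjusted p = 0.0213). The replicate block was not run between stages. Of 710 values of factors under other settings, 685 kept their call, 7 lost it, 18 gained it and 0 were reversed.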
